A study of Homo sapiens with 6 samples.

Results

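RAS family GTPases were followed here as 7 genes, HRAS, NRAS, RRAS, RRAS2, MRAS, RASD1 and RASD2, found in the tables by symbol. All 7 were found, 1 row each, among the 61496 features of the deposited tables. The data came from U251, an established human glioma cell line grown in DMEM with serum. Untreated control cells gave 3 libraries, and cells kept for 2 h in sevoflurane (Sev), a volatile anesthetic given as a gas, gave 3 more. The protocol listed Sev at 1.7%, 3.4% and 5.1%, and the labels gave no concentration for the single libraries. A legend of the published work names 5.1% for the sequenced U251 cells, and all 3 Sev libraries are taken as that group. All 6 libraries came from 1 cell line. The published work describes its quantitative data as coming from 3 independent experiments. It does not name the sequenced libraries there, and nothing in the sources used here says that the libraries of a group were separate cultures. The p-values below therefore measure only the spread between these libraries, which may be technical. For transcripts from bulk RNA, fewer cells of a type and less RNA per cell cannot be told apart.

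RAS proteins are small GTPases at the inner face of membranes that switch between a GTP-bound active and a GDP-bound inactive state. Exchange factors load them with GTP, GTPase-activating proteins speed its hydrolysis, and the active form binds RAF kinases, PI3-kinases and other effectors. Receptor signaling through RAS is a main route of growth control in glioma cells. The switch itself works on the protein, and the measurements here are of mRNA.

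The 6 libraries held between 38624292 and 46318311 counts each. The 7 genes together took 11242, 11852 and 13948 counts in the control libraries and 16198, 15639 and 17583 in the Sev libraries. All 8 glial and glioma markers were present, VIM, GFAP, NES and SOX2 among them, with VIM the main part of their summed FPKM (fragments per kilobase of gene length, scaled to depth, the deposited level per length), which was 1290 to 1500 in control and 1290 to 1400 in Sev. Of these markers 3 were called, in both directions, with SOX2 and S100B lower by 0.72 and 1.10 on the log2 scale and CD44 higher by 0.97 (adjusted p = 0.000367, 0.00215 and 0.000174 by edgeR), and their part in the results was not tested. Of the 5 blood and endothelial markers, 4 were under 1 FPKM, AIF1 among them with 0 in all libraries, and CD68 was at 1.19 FPKM in control and 1.70 in Sev. PECAM1, at 0.0747 FPKM in control and 0.127 in Sev, was the 1 marker of this list called. It was higher by 0.92 on the log2 scale (adjusted p = 0.0409 by edgeR) and lost its call in 9 of 13 alternatives. Summed FPKM of the 5 neuron markers was 19.3 to 23.9 in control and 27.3 to 28.9 in Sev, with 3 of them under 1 FPKM. TUBB3, at 16.1 FPKM in control and 23.5 in Sev, was the 1 neuron marker called (higher by 0.68 on the log2 scale, adjusted p = 0.00567 by edgeR), while MAP2 was at 4.75 and 3.72 FPKM and was not called. The part of these markers in the results was not tested. A large part of the transcriptome differed between the groups. Of 27514 features tested, 43.7% had an adjusted p-value under 0.05 (edgeR's quasi-likelihood test, Benjamini-Hochberg method), 22.1% higher and 21.5% lower in Sev, and such a feature is termed called below. The study instead took a log2 fold change beyond 1 in either direction together with an unadjusted p-value below 0.05, which 23.5% of features passed.

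In Sev, mRNA of NRAS and RRAS2 rose, and none of the other 5 genes was called. NRAS, the most abundant of the 7, was 1.58-fold higher, and RRAS2, a member of the R-RAS branch also known as TC21, was 1.94-fold higher. The count of 2 of 7, or 28.6%, stands beside 43.7% of all features and 45.9% of protein-coding genes that were called. By unadjusted p-values under 0.05 in edgeR, 3 genes, HRAS among them, were higher and 0 lower, and the Wald test of DESeq2 called 2 higher and 0 lower. In edgeR, 0 of 7 passed the threshold of the study, against 23.5% of all features. The median log2 fold change of the 7 genes was 0.335, beside -0.00559 over all tested features and 0.0376 over tested protein-coding genes. In order of level the genes read NRAS, RRAS, HRAS, RRAS2, MRAS, RASD1 and RASD2 in both groups.

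The sequence before a start of RRAS2, the gene with the largest difference, is given here to show its GC boxes, which the motif search below counts. RRAS2 has 4 annotated starts in RefSeq, and the line gives 100 bases before 1 of them, at chr11:14359185-14359284, read 5′ to 3′ on the minus strand from RefSeq's GRCh38.p14 sequence. Capitals mark the reverse complement of the GC box, GGGCGG.
RRAS2 start 2: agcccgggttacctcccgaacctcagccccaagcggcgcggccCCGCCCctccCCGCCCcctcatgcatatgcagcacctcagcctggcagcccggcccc

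**Figure D1:**
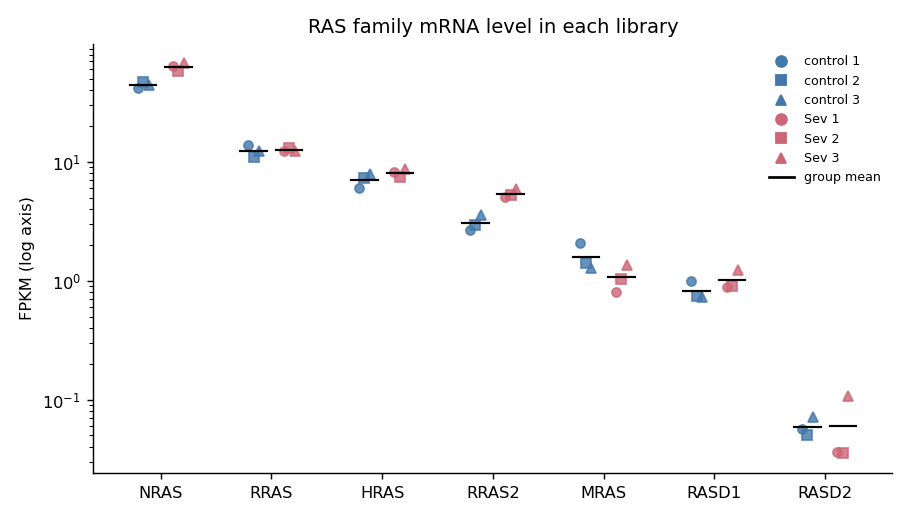
The plot shows FPKM on a log axis for the 7 genes in each of the 6 libraries, with control in blue, Sev in red, a marker shape per replicate number and a black line at each group mean. The Sev points of NRAS and RRAS2 all lie above the control points, and those of the other 5 genes overlap.

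HRAS and NRAS encode the classical RAS proteins of the set, which share nearly their whole switch domain and differ in the tail that carries the lipid anchors. NRAS (ENSG00000213281, chr1:114704469-114716894, minus strand of GRCh38) stood at 41.6, 47.0 and 44.5 FPKM in control and at 64.2, 58.8 and 67.4 FPKM in Sev. The lowest Sev library was above the highest control library. Group means were 44.4 ± 2.67 FPKM in control and 63.5 ± 4.35 FPKM in Sev (SD, n = 3), and 97.8% of 19887 protein-coding genes lay below the control mean. In CPM (counts scaled to library size and TMM-normalized, which corrects for the make-up of each library), NRAS went from 226 ± 18.1 to 356 ± 12.7 (SD, n = 3). The log2 fold change was 0.66 (SE 0.084, 95% interval 0.46 to 0.85, adjusted p = 0.000836, edgeR's quasi-likelihood test).

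HRAS (ENSG00000174775, chr11:532242-537287, minus strand) stood at 6.05, 7.34 and 7.94 FPKM in control and at 8.20, 7.50 and 8.74 FPKM in Sev. These ranges overlapped, since control replicate 3 was above Sev replicate 2. In CPM the groups did not overlap, with 13.2, 16.6 and 17.7 in control and 20.1, 19.0 and 20.7 in Sev. HRAS was not called, at a log2 fold change of 0.33 (SE 0.13, 95% interval 0.028 to 0.64, adjusted p = 0.0742 by edgeR's quasi-likelihood test). CPM ranges did not overlap between the groups for 3 of the 7 genes, NRAS, HRAS and RRAS2, against 56.5% of all tested features.

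RRAS, RRAS2 and MRAS encode the R-RAS branch, whose proteins act on integrin adhesion, cell shape and migration as well as on growth, and MRAS also forms a complex with SHOC2 and a PP1 phosphatase that frees RAF from its inhibited state. RRAS2 (ENSG00000133818, chr11:14277926-14364506, minus strand) stood at 2.67, 2.93 and 3.58 FPKM in control and at 5.05, 5.28 and 5.92 FPKM in Sev. All Sev libraries were above all control libraries. The group means were 3.06 ± 0.467 and 5.42 ± 0.450 FPKM, or 12.5 ± 2.00 and 24.4 ± 1.57 CPM (SD, n = 3). With a log2 fold change of 0.96 (SE 0.14, 95% interval 0.64 to 1.28, adjusted p = 0.00137, edgeR's quasi-likelihood test), RRAS2 had the largest difference of the 7 genes and lay just under the fold limit of the study. Without control replicate 3 the value was 1.08, and without Sev replicate 1 it was 1.01, so that either library decides on which side of that limit RRAS2 falls. Among annotated processed copies of RRAS2, RRAS2P1 had 10, 9 and 14 counts in control and 11, 15 and 4 in Sev, and RRAS2P2 had 0 in all libraries. The counts of RRAS2 itself were 453 to 712 in control and 855 to 1022 in Sev, so the copies held few reads beside it.

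RRAS (ENSG00000126458, chr19:49635292-49640201, minus strand) was second in level, with 13.8, 11.0 and 12.5 FPKM in control and 12.5, 13.1 and 12.3 FPKM in Sev. The groups overlapped and the log2 fold change was 0.17 (SE 0.12, 95% interval -0.11 to 0.44, adjusted p = 0.285 by edgeR). MRAS (ENSG00000158186, chr3:138347648-138405534, plus strand) was the 1 member with a negative value. It stood at 2.07, 1.42 and 1.28 FPKM in control and at 0.812, 1.04 and 1.36 FPKM in Sev. Sev replicate 3 lay within the control range. The log2 fold change of MRAS was -0.42 (SE 0.23, 95% interval -0.95 to 0.11, adjusted p = 0.175 by edgeR), and it was -0.21 without control replicate 1, the library with the highest MRAS, and -0.25 without Sev replicate 1, the library with the lowest.

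RASD1 (also named DEXRAS1, a dexamethasone-induced GTPase) and RASD2 (also named RHES, a GTPase known from the striatum) form a separate branch whose proteins carry a long tail and take part in G-protein, nitric oxide and iron uptake signaling. RASD1 (ENSG00000108551, chr17:17494437-17496395, minus strand) had 86, 62 and 74 counts in control and 76, 81 and 108 in Sev, with mean levels of 0.825 and 1.01 FPKM. The groups overlapped, and the log2 fold change was 0.43 (SE 0.22, 95% interval -0.070 to 0.93, adjusted p = 0.144 by edgeR). RASD2 (ENSG00000100302, chr22:35540868-35554001, plus strand) had only 10, 9 and 15 counts in control and 7, 7 and 19 in Sev. Its log2 fold change of 0.14 had a 95% interval of -0.97 to 1.25 (adjusted p = 0.836 by edgeR), and without Sev replicate 3 it was -0.47. At this depth a change of RASD2 within that interval was not detectable.

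**Figure D2:**
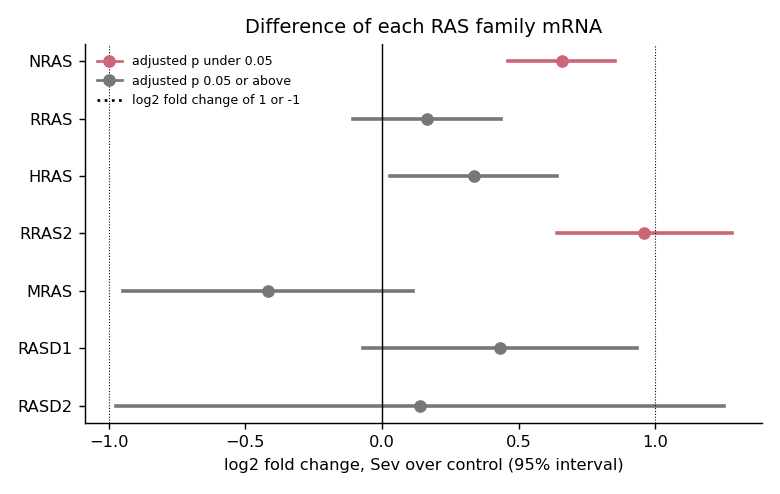
The plot shows the log2 fold change of Sev over control for each of the 7 genes as a point with its 95% interval, in red where the adjusted p-value was under 0.05, with dotted lines at 1 and -1. The intervals of NRAS, HRAS and RRAS2 lie above 0, and those of the other 4 genes include it.

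No annotated gene overlapped any of the 7 genes on either strand in GENCODE 29, so none shared its stretch with another annotated gene. Neighbours within 3000 bases of HRAS, RRAS and RASD1 were also measured. At the HRAS locus, LRRC56 starts 239 bases away and runs in the other direction. It had 3.17, 2.04 and 2.10 CPM in control and 2.10, 2.50 and 2.25 CPM in Sev. The groups overlapped, with a log2 fold change of -0.095 (SE 0.23, adjusted p = 0.761 by edgeR). The antisense gene AC137894.1, 2582 bases beyond the other end of HRAS, had 7, 4 and 0 counts in control and 20, 38 and 17 in Sev (log2 fold change 2.89, adjusted p = 0.0171 by edgeR). SCAF1, 1923 bases from RRAS, was higher in Sev by 0.36 on the log2 scale (adjusted p = 0.0114), whereas RRAS was not called. MED9, 1210 bases from RASD1, was not called either (log2 fold change 0.15, adjusted p = 0.29).

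The windows around RefSeq starts, 250 bases before to 50 after, were searched on both strands for short motifs in 6 of the 7 genes, which had 11 windows. The GC box, GGGCGG, was found for HRAS, NRAS, RRAS2, MRAS and RASD1, in 9 of the 11 windows, and it was in 45.0% of all 35116 windows. Windows of 1 gene are not independent, as RRAS2 had 4 and MRAS 3. GC content bears on such a motif, and its median over all windows was 58.7%. It was 78.0% for HRAS, 76.3% for RASD1 and 60.7% to 80.3% for MRAS. For RRAS2 it was 42.3% to 75.7%, and for NRAS and RASD2 57.3% and 56.3%. An E-box, CACGTG, was found in the 1 window of NRAS and is in 7.26% of all windows. No window of a member held the cAMP response element TGACGTCA (1.85% of all windows), the amino acid response element TGATGNAAN (3.61%), the AP-1 site TGANTCA (7.71%) or TATAAA (11.5%). GC boxes stood in called and uncalled members alike. The gene without a window was RRAS.

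Per length, neighbours in the order of levels were all apart in control, where no ranges overlapped. NRAS was 3.57-fold above RRAS, RRAS 1.75-fold above HRAS, HRAS 2.33-fold above RRAS2, RRAS2 1.92-fold above MRAS, MRAS 1.93-fold above RASD1 and RASD1 13.9-fold above RASD2. In Sev, 5 of the 6 neighbouring pairs were apart. MRAS and RASD1 overlapped, with a ratio of 1.07. The gap between RRAS2 and MRAS was 5.05-fold in Sev. RRAS2 in Sev (5.42 FPKM) was thus still under HRAS in control (7.11 FPKM).

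The summed FPKM of the 7 genes was 67.3, 70.4 and 70.6 in control and 91.7, 86.6 and 97.0 in Sev, a ratio of 1.32 between the means. Each gene's share of this sum does not depend on the scaling between libraries. NRAS made up 61.8%, 66.7% and 63.1% in control and 70.1%, 67.9% and 69.4% in Sev, a difference of 5.27 percentage points. RRAS2 went from 4.40 ± 0.587% to 5.90 ± 0.344%, while RRAS went from 17.9 ± 2.48% to 13.8 ± 1.22% and MRAS from 2.30 ± 0.680% to 1.17 ± 0.262% (SD, n = 3). The shares of these 4 genes did not overlap between the groups. For comparison, CPM ranges, a measure unlike a share, did not overlap for 56.5% of all tested features. Shares add up to the whole in each library and are not independent of each other. The share of RRAS was thus lower in Sev although its mean level was 12.4 FPKM in control and 12.6 in Sev. With 3 libraries against 3, the exact permutation test could not go below p = 0.1, which each of these reached (adjusted p = 0.175 over the 7 genes), so none passed a threshold of 0.05. HRAS had 10.2 ± 1.14% and 8.87 ± 0.190% (exact permutation p = 0.2), and RASD1 and RASD2 overlapped as well.

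NRAS over HRAS was 6.88, 6.39 and 5.61 in control and 7.83, 7.84 and 7.71 in Sev, without overlap. RRAS2 over RRAS was 0.249 ± 0.0492 in control and 0.430 ± 0.0446 in Sev, and RRAS2 over MRAS was 2.05 ± 0.755 and 5.20 ± 0.945 (SD, n = 3). Each had the smallest exact permutation p possible, 0.1. Within the R-RAS branch neither ratio overlapped between the groups. Both have RRAS2, the only gene of that branch called by itself, as numerator, so they restate its rise in part. With n = 3 per group the permutation test could not decide whether the make-up of the branch differed.

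**Figure D3:**
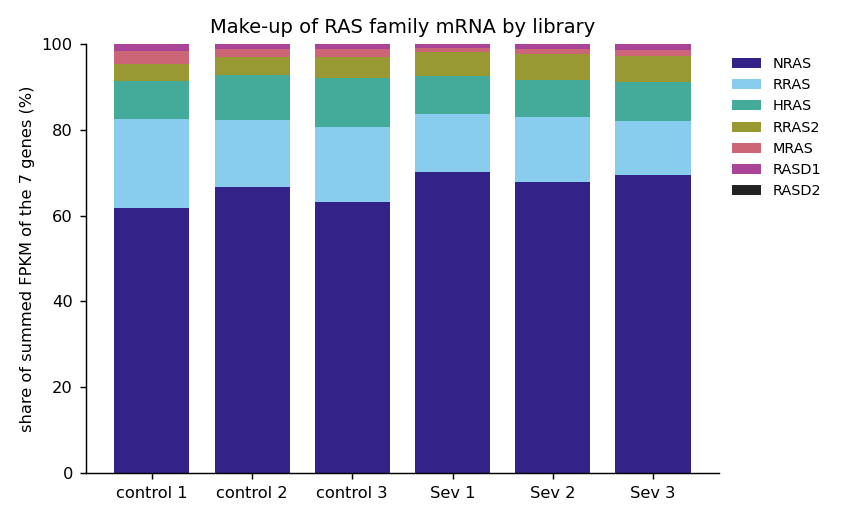
The bars show, for each of the 6 libraries, the share in percent of the summed FPKM of the 7 genes held by each gene, so that every bar adds up to the whole. NRAS holds 61.8% to 66.7% in control and 67.9% to 70.1% in Sev, and RASD2 is too small to be seen.

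The pattern most like that of NRAS over the 6 libraries, by the root mean square difference of log2 CPM centred on the control mean among 26490 genes, was that of PITPNB (0.0247), LETM1 (0.0289) and OPA1 (0.0302). For RRAS2 the most alike were TCP10L (0.0587), KLHL3 (0.0689) and SEMA3F (0.0847). These are descriptions of likeness only.

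The other genes of the pathway were taken from 11 lists with 138 genes, of which 130 were tested. Of these, 44 were called higher and 23 lower, together 51.5%, with a median log2 fold change of 0.109. Over all features tested 43.7% were called, 22.1% higher and 21.5% lower, and over protein-coding genes 45.9%, and the counts of the single lists below stand beside these shares. Scaling by library size alone shifted the median of all genes by -0.141 and gave 36 higher and 34 lower, where 17% of all features were called higher and 27.3% lower. The balance of directions thus moved with the scaling over all features as well as over the lists. Of the genes named below, RASA4, RASA2, RCE1, FNTB, RGL3, PPP1CB, PLXNB3, GNAI3, SLC11A2, ETV5, SGK1 and PER1 overlap another annotated gene on the same strand, and most others overlap one on the opposite strand, so that their counts are less certain than those of the 7 genes. How the counting used strand is not given in the sources used here.

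Exchange factors, which switch RAS on, had 5 of 8 genes called higher and 1 lower, with a median log2 fold change of 0.867 (3 higher without control replicate 1 or control replicate 3, and 4 higher and 3 lower with library size alone). RASGRF1, a calcium-responsive exchange factor of neurons, had 64, 63 and 91 counts in control and 313, 268 and 500 in Sev. All Sev libraries were far above control, at a log2 fold change of 2.49 (SE 0.25, adjusted p = 0.000311 by edgeR). RASGRP1, an exchange factor driven by diacylglycerol, went from 7.97 ± 2.06 to 23.1 ± 3.66 CPM (adjusted p = 0.00122). RASGRP2 was low, at 0.105 ± 0.143 CPM in control and 0.996 ± 0.289 CPM in Sev, and its adjusted p of 0.0123 became 0.0504 without control replicate 1. SOS2, which couples growth factor receptors to RAS, fell from 40.4 ± 4.13 to 24.4 ± 2.35 CPM (adjusted p = 0.00206 by edgeR). SOS1 was not called (log2 fold change -0.23, adjusted p = 0.218 by edgeR). In control, SOS1 and SOS2 had the highest levels of the list, at 5.94 and 4.96 FPKM, and they stood at 4.57 and 2.71 FPKM in Sev. RASGRF1 and RASGRP2 were far lower, at 0.138 and 0.0113 FPKM in control and 0.728 and 0.117 in Sev. The list median thus does not describe its most abundant genes.

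The list of GTPase-activating proteins, which switch RAS off, also held SPRED1, SPRED2 and SPRED3, which are not such enzymes themselves. It had 5 of 12 tested genes called higher and 1 lower, with a median log2 fold change of 0.212. SPRED2 (log2 fold change 0.68, adjusted p = 0.00119 by edgeR), RASA4 and RASA4B were among the 5. RASA2 rose from 14.8 ± 0.971 to 25.2 ± 1.65 CPM (adjusted p = 0.00118 by edgeR). RASA4 and RASA4B were both higher, by 1.89 and 1.66 on the log2 scale, but they are near-identical copies whose reads the counting could have split, so the single values are uncertain. The plexins, semaphorin receptors whose inner domain acts on R-RAS and RAP proteins, had 6 of 9 genes called lower and 0 higher by edgeR, with a median of -0.398. At an unadjusted p-value under 0.05, and by the Wald test of DESeq2, the count of plexins higher was also 0. PLXNA2 had 133, 97.5 and 114 CPM in control and 49.0, 68.0 and 41.2 CPM in Sev, without overlap (adjusted p = 0.00286). PLXNB3 and PLXNA3 fell by 0.69 and 0.66 on the log2 scale (adjusted p = 0.00144 and 0.00176 by edgeR).

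**Figure D4:**
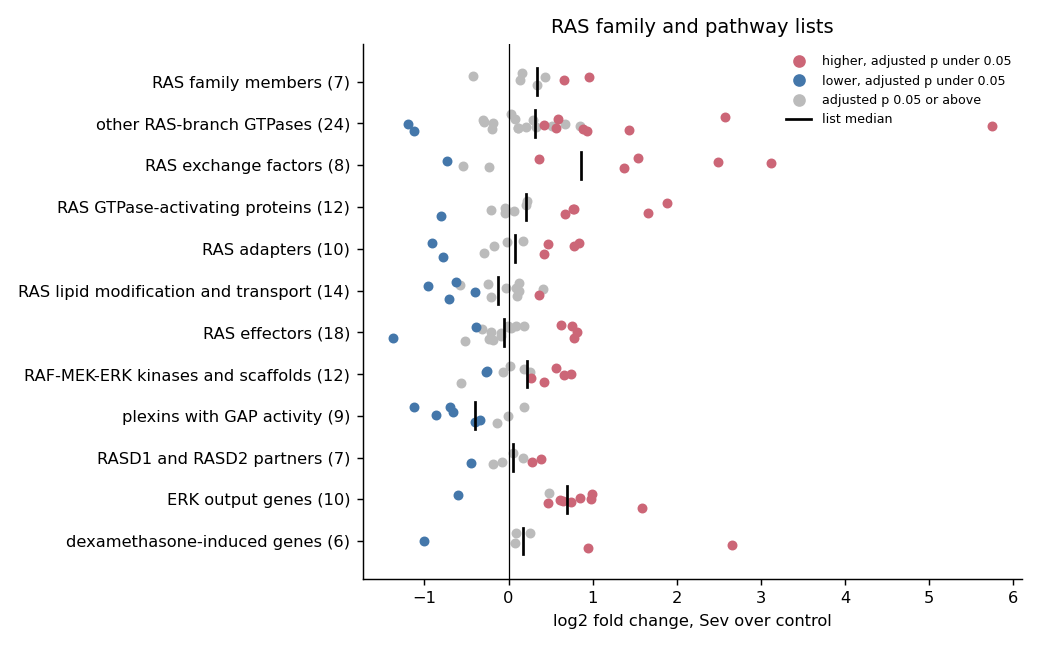
The plot shows the log2 fold change of Sev over control for the tested genes of the 7-gene set and of 11 pathway lists, 1 point per gene, red where called higher, blue where called lower and gray otherwise, with a black bar at the list's median and the number of genes in brackets. Exchange factors and ERK output genes lie mostly right of 0 and plexins mostly left of it. The point farthest right is RASL12, with 3 counts in control in all.

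Adapters, which link receptors to exchange factors, had 4 of 10 called higher and 2 lower, with a median of 0.0808. SHC4, PTPN11 (the phosphatase SHP2) and FRS2 rose by 0.78, 0.42 and 0.84 on the log2 scale (adjusted p = 0.00174, 0.00584 and 0.00975 by edgeR), and FRS2 lost its call on the scale of log2(FPKM + 1) without a filter (adjusted p = 0.0959 by limma). SHC2 and FRS3 fell by 0.90 and 0.78. FRS3 lost its call when any 1 library except Sev replicate 3 was left out. Of the 14 genes that farnesylate, process, palmitoylate or carry RAS proteins, 1 was called higher and 4 lower, with a median of -0.122. ABHD17C, a depalmitoylase known to act on NRAS, went from 41.2 ± 3.16 to 25.2 ± 4.32 CPM (adjusted p = 0.00443), and ABHD17A from 50.3 ± 3.36 to 38.3 ± 2.23 CPM (adjusted p = 0.0106, or 0.0503 without Sev replicate 1). FNTB, the farnesyltransferase subunit, was lower by 0.95 on the log2 scale, but it overlaps CHURC1-FNTB on the same strand and is uncertain. RCE1, the 1 gene of this list called higher, rose by 0.37 and lost its call without any 1 library except Sev replicate 3.

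Among 18 effectors, 4 were called higher and 2 lower, and the median was -0.0483. Scaled by library size alone, 4 were called higher and 6 lower. RASSF1 and TIAM1 rose by 0.62 and 0.75, and RGL3 and RGL2, exchange factors for RAL proteins, fell by 1.37 and 0.38 on the log2 scale. RGL2 lost its call without control replicate 1, control replicate 3, Sev replicate 1 or Sev replicate 3. Of 12 kinases and scaffolds of the RAF-MEK-ERK cascade, 5 were called higher and 2 lower (2 higher without control replicate 1, Sev replicate 1 or Sev replicate 2, and 3 without control replicate 3 or Sev replicate 3). Library size alone gave 2 higher and 3 lower for them. Among partners of the MRAS and SHOC2 complex, the phosphatase subunits PPP1CC and PPP1CA rose by 0.56 and 0.43, while PPP1CB fell by 0.26 on the log2 scale. PPP1CB was the most abundant of these subunits, at 172.5 FPKM in control and 130 in Sev. PPP1CA stood at 27.7 and 33.7 FPKM and PPP1CC at 12.6 and 16.7. SHOC2 itself was called higher, from 37.5 ± 13.6 to 59.3 ± 2.06 CPM (adjusted p = 0.0419 by edgeR). PEBP1, which holds back RAF kinases, rose by 0.26, and the calls of PPP1CB and PEBP1 were each lost when 1 of several libraries was left out.

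Genes known as outputs of ERK signaling had 8 of 10 called higher and 1 lower, with a median of 0.697, and 4 of them were called higher without control replicate 3. CCND1 rose from 396 ± 47.2 to 781 ± 38.6 CPM, ETV5 from 137 ± 4.56 to 209 ± 4.02 CPM and DUSP4 from 74.7 ± 9.52 to 225 ± 60.9 CPM (adjusted p = 0.000401, 0.000515 and 0.000622 by edgeR, n = 3). DUSP6, another phosphatase of this feedback group, fell from 40.9 ± 2.88 to 27.0 ± 4.99 CPM (adjusted p = 0.012). The list therefore held members that moved in opposite directions.

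Of the 24 other RAS-branch GTPases tested, 8 were called higher and 2 lower, with a median of 0.312. RAP2B, which acts on the cytoskeleton, rose from 69.0 ± 9.67 to 132 ± 14.7 CPM (adjusted p = 0.00103 by edgeR), and RASL11A from 0.618 ± 0.262 to 3.70 ± 0.949 CPM (adjusted p = 0.000985). RASL12 had 0, 0 and 3 counts in control and 34, 40 and 87 in Sev, a ratio of 61.0 with a 95% interval of 20.5 to 299 that covers counting error only. DIRAS2 and RERGL fell by 1.13 and 1.19 on the log2 scale (adjusted p = 0.0173 and 0.0395), at about 1 CPM in control. DIRAS2 lost its call without control replicate 1 or Sev replicate 1, and RERGL without any 1 library except Sev replicate 2.

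RASD1 is named for its induction by dexamethasone, and the list of dexamethasone-induced genes was looked at beside it. Of 6 tested, 2 were called higher and 1 lower. SGK1 rose from 69.6 ± 9.04 to 438 ± 58.9 CPM (adjusted p = 4.18e-05) and PER1 from 81.6 ± 3.30 to 157 ± 26.4 CPM (adjusted p = 0.000846), whereas TSC22D3, which encodes the glucocorticoid-induced protein GILZ, fell from 17.0 ± 3.25 to 8.50 ± 1.19 CPM (adjusted p = 0.00308 by edgeR). Among 7 tested partners of RASD1 and RASD2, 2 were called higher and 1 lower. SLC11A2, an iron transporter known to act with RASD1 in iron uptake, fell from 51.9 ± 1.62 to 38.1 ± 1.90 CPM (adjusted p = 0.00394). ACBD3, the adapter between them, rose by 0.39 (adjusted p = 0.0117, or 0.0546 without control replicate 3 and 0.0536 without Sev replicate 1), and GNAI3 rose by 0.28, a call that was lost without any 1 library except control replicate 2.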

How the data were processed

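RNA of 3 control and 3 Sev libraries of U251 cells was sequenced after strand-specific adapter ligation. The authors deposited counts per gene, not normalized, and FPKM values of the same features. The submitters' processing notes list bcl2fastq 2.19, featureCounts and hg18, and the aligner and annotation are not given in the sources used here. Ensembl identifiers were joined to symbols (60295 of 61496 features), and positions came from GENCODE 29 on GRCh38, so no coordinate of hg18 was used. FPKM values matched gene lengths 1.16 to 1.42 times the annotated exon length of the 7 genes, which bears on comparisons between genes.

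Groups came from the labels. Counts were filtered with filterByExpr, normalized by TMM and tested with the quasi-likelihood test of edgeR 4.0.16 in R 4.3.3, without covariates, and p-values were adjusted by Benjamini-Hochberg over 27514 features. Standard errors are the log2 fold change over the root of the F statistic. Shares were compared with exact permutation tests in scipy 1.17.1. The members and lists were chosen with earlier results of these data known. Named were all 7 members, up to 3 called genes per list and direction with the smallest p-values, the 3 genes most like each called member, and annotated overlaps and copies. Neighbours within 3000 bases, SOS1, SHOC2 and the SPRED genes were added after their values were seen. Results for some genes that the rule names are not reported here.

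As alternatives, RLE size factors, plain library sizes, no filter, a minimum of 10 counts per library, a block for the replicate number and the omission of single libraries were tried in edgeR. The Wald test came from DESeq2 1.42.0. The test of limma 3.58.1 was run on log2(FPKM + 1) and log2(FPKM + 0.1), for features that reached an FPKM of 0.5 in 3 libraries, and on log2(FPKM + 1) unfiltered. Totals were 38624292 to 46318311 counts, so that precision was limited by the 3 libraries per group, and by depth for RASD2.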

Additional observations from a re-analysis of the deposited data

How the results depend on the processing

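NRAS and RRAS2 were called higher under each of the 15 alternatives run, and none of the genes tested was called lower, with RASD2 tested in 12 of them, in which 23.5% to 46.4% of all features tested were called in either direction. Over these, the log2 fold change was 0.51 to 0.71 for NRAS and 0.66 to 1.08 for RRAS2. Leaving out 1 library gave 0.59 to 0.71 (adjusted p = 0.00206 to 0.00622) and 0.85 to 1.08 (adjusted p = 0.00281 to 0.00689) by edgeR. HRAS was called in none. RASD2 changed sign, to -0.47 without Sev replicate 3 (range -0.47 to 0.37 over libraries left out) and to -0.000194 with log2(FPKM + 1), no filter, where the counts are few. The difference in NRAS share was 4.27 to 6.67 percentage points over libraries left out.

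Of the 130 pathway genes tested, 44 were called higher and 23 lower. Without 1 library this was 31 to 41 higher and 14 to 27 lower, the lowest being 14 lower without Sev replicate 1. With log2(FPKM + 1), no filter, 26 were called higher and 26 lower, beside 9.64% and 14.5% of all features, and with the filter on FPKM 30 and 28, beside 16.4% and 30% of all features. Library size only gave 36 and 34, beside 17% and 27.3%. The cause was not tested. Of 54 list genes called and named by the rule, 40 kept their call in every alternative that tested them, 14 lost it in at least 1, and 0 reversed.

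The replicate numbers did not pair the libraries. Correlations of the deviations of same-numbered libraries were -0.0072, 0.0035 and 0.027. With the replicate number as a block, 2 of the 7 genes were called higher and 0 lower, and 38 pathway genes higher and 17 lower. Depth limits only genes with few counts, such as RASD2.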
